A study of Mus musculus with 9 samples.

Results

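App encodes the amyloid precursor protein (APP), and the 9 genes described here are App, its relative Aplp2, the beta-secretase genes Bace1 and Bace2, the alpha-secretase gene Adam17, the gamma-secretase genes Psen2, Ncstn and Aph1a, and Itm2b, the gene of the APP-binding protein BRI2. They were taken by symbol from the 24346 genes listed for every library, and each symbol was found. The genes were chosen by pathway with earlier FPKM results of these libraries in view, and the choice set no cutoff on a value. Their levels and differences are therefore given as descriptions with no p-value. A count of members past the threshold of a fit across all genes is set beside the background, also as a description, and supports nothing. Other genes of the pathway were tested. B cells from the spleens of wild-type C57BL6 mice were sorted into 3 groups of 3 libraries, described as n = 3 mice each. FO B (Young) are follicular (FO) B cells of mice aged 8 weeks, FO B (Aged) are the same cell type from mice aged 50 weeks, and ABCs (Aged) are age-associated B cells of mice aged 50 weeks. Both cell types were gated as B220 high and CD43-. FO B cells were CD23+ with low CD21, and ABCs were CD23- with low CD21 and carried CD11b and CD11c. No ABC library of young mice was analysed here, so age was compared within FO B cells only, and cell type within aged mice.

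APP is a membrane protein that is cut in sequence. An alpha-secretase (ADAM10, ADAM17 or ADAM9) or the beta-secretase BACE1 sheds its outer part, and gamma-secretase, a complex of a presenilin, nicastrin, APH1 and PEN2, then cuts the remaining stub within the membrane. Only the beta and gamma route gives the amyloid-beta peptide. The same enzymes shed and cut receptors and cytokines on B cells, among them Notch receptors and TNF. BRI2 binds APP and limits its cutting, and is itself processed by a furin-type protease, ADAM10 and signal peptide peptidase-like proteases.

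In the GENCODE M21 annotation of GRCm38, the assembly also called mm10, all 9 genes are protein-coding. App lies at chr16:84949685-85173766 on the minus strand, with 11 transcripts of up to 18 exons. Bace2 is on the same chromosome at chr16:97356742-97442936 on the plus strand. Aplp2 at chr9:31149557-31211815 on the minus strand and Bace1 at chr9:45838580-45864399 on the plus strand share chromosome 9. Psen2 at chr1:180227004-180263438 and Ncstn at chr1:172066013-172082795 are both on the minus strand of chromosome 1. Aph1a lies at chr3:95893969-95898288 on the plus strand, Itm2b at chr14:73362226-73385289 on the minus strand and Adam17 at chr12:21323509-21373632 on the minus strand. The kit keeps no strand, so reads in exons shared with a neighbour cannot be assigned. Such neighbours with FPKM values are Rnf214 for Bace1, Copa for Ncstn, Car14 for Aph1a and Iah1 for Adam17. Copa averaged 69.0 FPKM in FO B (Aged) and 83.4 in ABCs (Aged), above Ncstn in both and higher in ABCs as Ncstn was. Car14 stayed at group means of 0.243 to 0.534 FPKM, and Iah1 averaged 53.4 FPKM in FO B (Aged) and 43.4 in ABCs (Aged), lower in ABCs where the Adam17 mean was slightly higher. Rnf214 averaged 8.18 FPKM in FO B (Aged) and 8.40 in ABCs (Aged), a difference in the opposite direction to that of Bace1.

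The upstream sequences of 4 members are shown as examples, App, Aplp2 and Itm2b being higher and Psen2 lower in ABCs. Aph1a was also higher in ABCs, but its sequence and a further listed start of Psen2 are not shown. RefSeq start regions on GRCm38.p6 were found for 7 of the 9 members. Bace1 and Bace2 had no entry. Each run is given 5′ to 3′ on the strand of the gene and ends at or before an annotated start, with exonic bases left out. Capitals mark matches on either strand to the GC box (GGGCGG), the T-box motif (GGTGTGA), the E-box (CAGGTG) or the TATA box (TATAAA).
App, chr16:85173767-85173957, minus strand: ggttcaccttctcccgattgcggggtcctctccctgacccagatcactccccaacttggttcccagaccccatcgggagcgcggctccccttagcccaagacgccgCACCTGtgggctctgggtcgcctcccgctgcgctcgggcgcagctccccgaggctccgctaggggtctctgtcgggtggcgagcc
Itm2b, chr14:73385290-73385539, minus strand: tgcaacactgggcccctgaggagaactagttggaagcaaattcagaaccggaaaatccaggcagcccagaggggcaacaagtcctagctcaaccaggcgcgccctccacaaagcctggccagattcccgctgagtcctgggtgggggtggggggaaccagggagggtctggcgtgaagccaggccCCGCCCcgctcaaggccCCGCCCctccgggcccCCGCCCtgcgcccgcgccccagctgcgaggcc
Aplp2, chr9:31211849-31212098, minus strand: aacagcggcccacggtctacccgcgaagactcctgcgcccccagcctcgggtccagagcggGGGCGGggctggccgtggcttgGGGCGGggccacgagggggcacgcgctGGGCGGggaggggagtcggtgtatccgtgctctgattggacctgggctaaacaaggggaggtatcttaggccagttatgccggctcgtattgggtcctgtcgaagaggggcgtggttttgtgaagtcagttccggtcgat
Psen2, chr1:180256301-180256428, minus strand: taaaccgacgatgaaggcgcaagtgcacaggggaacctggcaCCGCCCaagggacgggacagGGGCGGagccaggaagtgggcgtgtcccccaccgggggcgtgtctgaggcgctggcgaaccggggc
Over 250 bases before to 50 after a start, 35.7% of 32851 RefSeq start regions hold a GC box, 20.2% the E-box, 13.6% the TATA box and 3.98% the T-box motif. The App run holds the E-box on the reverse strand and is 69.6% G and C, and its 1 GC box lies in the part left out. The Itm2b run holds 3 GC boxes on the reverse strand, the Aplp2 run has 3 on the gene's strand, and the Psen2 run has 1 on each strand. The whole windows, which the background shares use, hold 4 for Aplp2 and 2 on each strand for this Psen2 start. No T-box motif or TATA box was matched in these 4 windows. These matches are letters in a window and say nothing about binding.

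Values are FPKM, the reads of a gene divided by its transcript length and by library depth, so levels of different genes can be set side by side. Depth was recovered from the size of 1 read in low values and came to approximately 7240000 to 8800000 mapped reads per library. Between 10032 and 10445 genes per library had 1 FPKM or more. The B cell genes Cd79a, Cd79b, Ms4a1, Pax5 and Cd22 reached 1 FPKM in every group. The sort marker Fcer2a, the CD23 gene, was between 697 and 728 FPKM in FO B (Aged) but between 0.463 and 6.95 in the ABC libraries. ABC replicate 3 stood somewhat apart, with correlations of log2 values of 0.964 and 0.958 with the other ABC libraries against 0.980 between those. Differences of the members are therefore also given without it. The summed FPKM of 10 macrophage and monocyte markers lay between 14.3 and 23.0 in FO B (Aged) and between 77.6 and 90.4 in ABCs, of which Ly6c2 alone held 61.3 to 84.1. Of the other macrophage and monocyte markers in the ABC libraries, Lyz2 was at 2.22 to 7.02 FPKM, C1qb at 1.30 to 2.42, C1qc at 0.393 to 4.03 and Ccr2 at 0.0326 to 1.93, with the highest value of each in ABC replicate 3. Csf1r, C1qa, Cd14, Mertk and Fcgr1 were each at or below 0.841. Lyz2 was at 2.28 to 7.06 FPKM and C1qb at 0.238 to 1.59 in FO B (Aged). Among 5 plasma cell markers the sum lay between 129 and 148 FPKM in FO B (Aged) and between 191 and 225 in ABCs, with Jchain at 12.5 to 61.6 in ABCs. The 6 platelet and megakaryocyte markers summed to 0.619 to 2.57 FPKM in ABCs, the 6 T cell markers to at most 1.002, and the 5 NK cell markers to 24.4 to 38.0, of which Prf1 held 24.1 to 38.0. The 5 dendritic cell markers summed to between 4.04 and 6.45 FPKM in ABCs, against 1.93 to 4.20 in FO B (Aged). The part of these cells in the results below was not tested. In such bulk libraries, a change in how many cells express a gene cannot be told apart from a change in RNA per cell.

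App was scarce in FO B cells and abundant in ABCs. Its level was 0.593, 0.545 and 0.658 FPKM in the FO B (Young) libraries, 0.816, 1.13 and 1.47 in FO B (Aged), and 28.3, 21.1 and 35.0 in ABCs (Aged). No group overlapped another, and every ABC library lay far above every FO B library. Mean App was 28.1 ± 6.98 FPKM (SD, n = 3) in ABCs, 1.14 ± 0.327 in FO B (Aged) and 0.599 ± 0.0569 in FO B (Young). This is 24.7-fold over FO B (Aged) and 47.0-fold over FO B (Young). Even the lowest ABC library was 14.3-fold above the highest FO B (Aged) library. On the log2(FPKM + 1) scale, which understates changes of low genes, ABCs exceeded FO B (Aged) by 3.75 (SE 0.24) and by 3.58 without ABC replicate 3. App ranked above 59.4% to 71.5% of the genes with at least 1 FPKM in the ABC libraries. In FO B (Aged) it was below 1 FPKM in 1 library and above 1.32% and 3.997% of such genes in the others.

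Between the FO B groups, App was 1.90-fold higher in aged mice, a log2 difference of 0.41 (SE 0.13). These levels rest on few reads. If all reads came from the shortest or the longest coding transcript, the FO B libraries would hold roughly 12.0 to 94.9 App reads each, and the ABC libraries 481 to 2105. App missed the minimum mean of 1 FPKM for the fit of aged against young FO B cells.

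Aplp2, the widely expressed APP relative, was already present in FO B cells. Its level was 23.5, 23.5 and 21.0 FPKM in FO B (Young), 22.1, 20.5 and 21.7 in FO B (Aged), and 29.4, 27.5 and 32.8 in ABCs. The FO B groups overlapped, and all ABC libraries were higher, by 1.40-fold over FO B (Aged) in the mean (log2 difference 0.46, SE 0.08, and 0.39 without ABC replicate 3). Aplp1, the third gene of the family and mostly neuronal, came to 1 read in all over FO B (Young), 0 reads over FO B (Aged) and 35 reads over ABCs. Its ABC mean was 0.628 ± 0.282 FPKM (SD, n = 3), and the level of 3 reads in FO B (Aged), the upper limit that a count of 0 allows, is 0.139 to 0.169 FPKM. The floor covers counting error only.

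The balance within the family differed by group. The ratio of App to Aplp2 within a library was 0.0266 ± 0.00430 in FO B (Young), 0.0533 ± 0.0155 in FO B (Aged) and 0.933 ± 0.153 in ABCs (SD, n = 3 each). In ABCs it ran from 0.767 to 1.07, so App reached about the level of Aplp2. In FO B cells, Aplp2 accounted for nearly all transcript of the family.

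**Figure D1:**
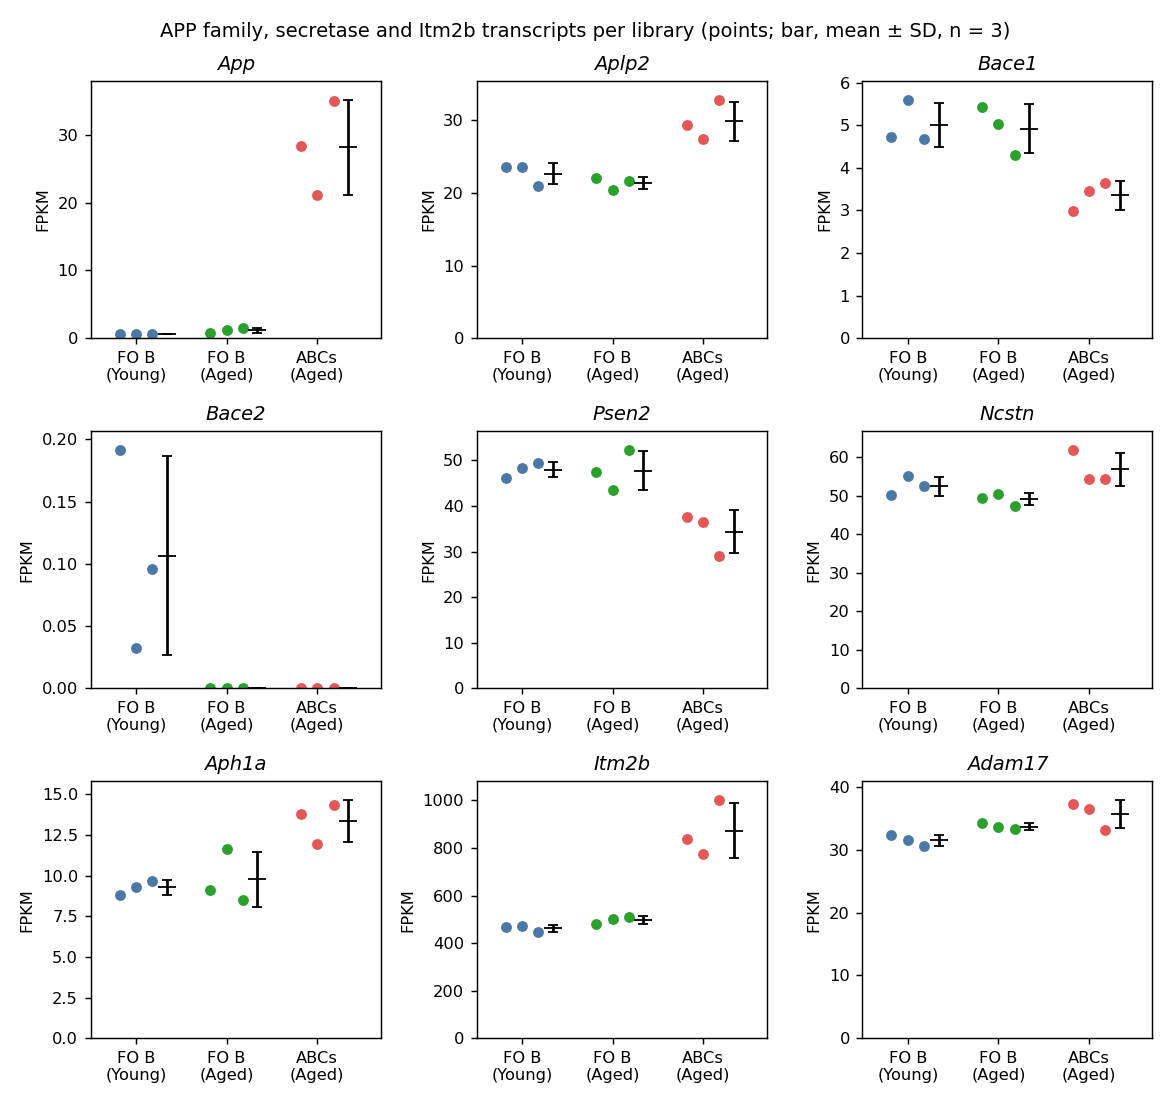
FPKM of the 9 genes in each library, with 1 panel per gene, a linear axis from 0 and a bar for the mean ± SD of the 3 libraries of a group. App and Itm2b are higher in every ABC library than in any FO B library, Bace1 and Psen2 are lower, and Bace2 is at 0 in all 6 libraries of aged mice.

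The beta-secretase genes did not follow App. Bace1, the gene of the main beta-secretase, was at 4.72, 5.59 and 4.69 FPKM in FO B (Young), 5.44, 5.02 and 4.31 in FO B (Aged), and 2.98, 3.46 and 3.64 in ABCs. The FO B groups overlapped, whereas each ABC library was below each FO B library. The ABC mean of 3.36 ± 0.343 FPKM (SD, n = 3) was 31.8% below that of FO B (Aged), a log2 difference of -0.44 (SE 0.11). Without ABC replicate 3 the difference was -0.49. With App higher and Bace1 lower, the ratio of App to Bace1 went from 0.239 ± 0.0961 in FO B (Aged) to 8.40 ± 2.005 in ABCs (SD, n = 3 each).

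Bace2, the other beta-site protease, which also cuts within the amyloid-beta region, was near the limit of detection. The FO B (Young) libraries held 6, 1 and 3 reads, equal to 0.191, 0.0322 and 0.0963 FPKM. All 6 libraries of aged mice, FO B cells and ABCs, held 0 reads. A count of 0 allows up to 3 reads, which is 0.0859 to 0.105 FPKM in these libraries and covers counting error only. Over the group, FO B (Young) held 10 reads, 6 of them in replicate 1, which lies above that limit, and the other two libraries lie within or below its range. Bace2 reached at most 4.05% of the Bace1 level in any library.

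Adam17, which encodes the TNF-converting enzyme and an inducible alpha-secretase, differed little between groups. Its level was 32.3, 31.5 and 30.6 FPKM in FO B (Young), 34.2, 33.5 and 33.2 in FO B (Aged), and 37.2, 36.5 and 33.1 in ABCs. The groups of aged mice overlapped through ABC replicate 3. The ABC mean of 35.6 ± 2.23 FPKM (SD, n = 3) was 5.73% above that of FO B (Aged), a log2 difference of 0.08 (SE 0.05), and 0.13 without that library. All FO B (Aged) libraries were above all FO B (Young) libraries, by 7.02% in the mean, but with upper-quartile scaling this difference turned to -0.03 on the log2 scale.

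The other alpha-secretase genes, tested with limma, did not pass the threshold either. Adam10, the constitutive alpha-secretase gene, was at 33.2 ± 0.631 FPKM in FO B (Aged) and 37.8 ± 3.71 in ABCs (SD, n = 3 each; log2 fold change 0.18, FDR = 0.15). Adam9 differed by 0.34 (FDR = 0.21). The ratio of Adam17 to Adam10 was 0.976, 1.01 and 0.951 in FO B (Young), FO B (Aged) and ABCs, so both genes were at about the same level in each group.

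**Figure D2:**
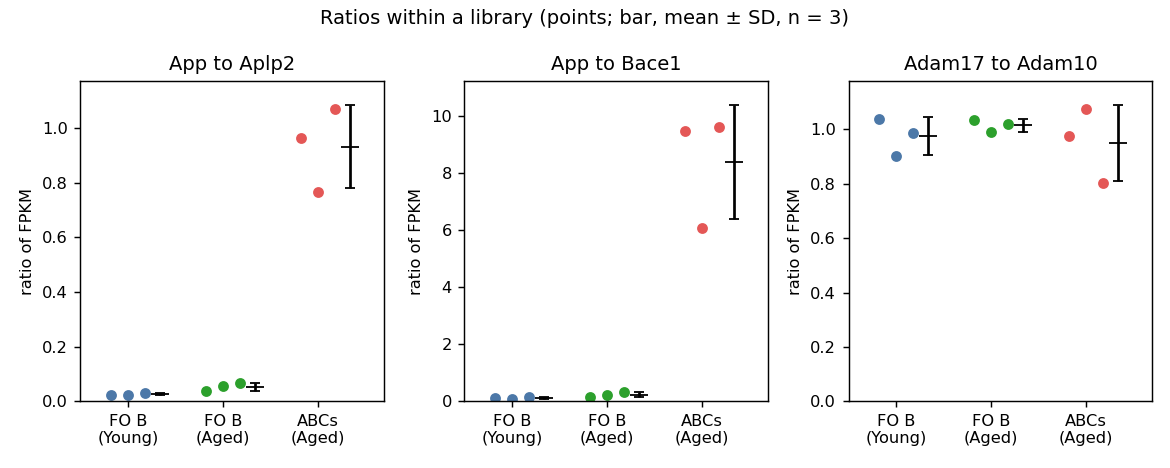
Ratios of FPKM within each library for App to Aplp2, App to Bace1 and Adam17 to Adam10, with linear axes from 0 and bars for the mean ± SD (n = 3). ABCs have the highest ratio in the first and the second panel, with means of 0.933 and 8.40, while the group means of Adam17 to Adam10 lie between 0.951 and 1.01.

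Genes that act on the ADAM proteases moved in both directions between ABCs and FO B (Aged). Of 12 such genes, 8 reached a mean of 1 FPKM, and 2 were higher and 2 lower (limma, FDR under 0.05). This is 50% of those tested, where 35.9% of all genes tested passed. Rhbdf1 and Rhbdf2 encode the iRhoms, which carry ADAM17 to the cell surface. Rhbdf1 rose by 1.36 on the log2 scale (SE 0.09, limma FDR = 7.51e-05), from 7.90 ± 0.535 to 21.8 ± 0.790 FPKM (SD, n = 3 each). Rhbdf2 fell by 1.05 (SE 0.32, limma FDR = 0.04), from 29.8 ± 4.57 to 14.9 ± 6.49 FPKM. Rhbdf2 was at 7.50 FPKM in ABC replicate 3, and without this library its log2 difference was -0.65 (limma FDR = 0.0096). Leaving out ABC replicate 1 or any 1 FO B (Aged) library, Rhbdf2 no longer passed, with an FDR of up to 0.12. Tspan14, a tetraspanin partner of ADAM10, rose by 0.71 (limma FDR = 0.00023). Furin, which removes the pro-domains of ADAM proteases and also cuts BRI2, fell by 1.25 (limma FDR = 0.0084), from 3.63 to 0.883 FPKM. This call depends on the aged FO B group, since Furin averaged 1.46 FPKM in FO B (Young), where the libraries overlapped those of ABCs (log2 fold change -0.38, limma FDR = 0.14).

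Psen2, the gene of a presenilin, the catalytic subunit of gamma-secretase, was lower in ABCs. It was at 46.2, 48.3 and 49.4 FPKM in FO B (Young), 47.6, 43.5 and 52.3 in FO B (Aged), and 37.7, 36.4 and 29.0 in ABCs. The FO B groups overlapped and all ABC libraries were lower. The ABC mean of 34.4 ± 4.70 FPKM (SD, n = 3) was 28.1% below that of FO B (Aged), a log2 difference of -0.47 (SE 0.14), and -0.35 without ABC replicate 3.

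The other subunits differed less. Ncstn encodes nicastrin, the substrate-binding subunit, and was at 50.1, 55.1 and 52.5 FPKM in FO B (Young), 49.3, 50.5 and 47.4 in FO B (Aged), and 61.9, 54.5 and 54.4 in ABCs. The ABC libraries were above those of FO B (Aged), by 16.0% in the mean (log2 difference 0.21, SE 0.07, and 0.24 without ABC replicate 3), but overlapped FO B (Young). Aph1a, the main scaffold subunit gene, was at 8.80, 9.34 and 9.71 FPKM in FO B (Young), 9.11, 11.7 and 8.54 in FO B (Aged), and 13.8, 11.9 and 14.4 in ABCs. The lowest ABC library was just above the highest FO B (Aged) library, a ratio of 1.02, and the means differed by 36.8% (log2 difference 0.42, SE 0.15, and 0.37 without ABC replicate 3). Aph1a held 93.2% ± 0.940 of the summed Aph1a, Aph1b and Aph1c level in FO B (Aged) and 96.2% ± 1.55 in ABCs (SD, n = 3 each). Psenen, the PEN2 gene, was at 239 ± 23.4 FPKM in FO B (Aged) and 284 ± 28.2 in ABCs (limma log2 fold change 0.25, FDR = 0.096).

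Of 3 genes that modulate gamma-secretase, 2 were higher in ABCs than in FO B (Aged), 66.7% beside 35.9% called over all genes tested. Gsap, the gamma-secretase activating protein gene, rose by 1.14 (SE 0.32, limma FDR = 0.03), from 10.8 ± 0.132 to 27.1 ± 12.1 FPKM (SD, n = 3 each). In ABC replicate 3 it was only 13.6 FPKM, and without this library the log2 difference was 1.55 (limma FDR = 5.74e-05). Gsap no longer passed when any 1 of the other 5 libraries was left out, with a limma FDR of 0.071 to 0.091. Tmed10 rose by 0.22 (limma FDR = 0.037) and missed the threshold whenever any library was left out. Rer1 differed by 0.09 (FDR = 0.40).

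Itm2b was the most abundant member in all groups. Its level was 470, 474 and 447 FPKM in FO B (Young), 479, 503 and 511 in FO B (Aged), and 839, 777 and 1000 in ABCs. It exceeded at least 97.9% of the genes with 1 FPKM or more in each library. The FO B libraries all lay below those of ABCs. The ABC mean of 872 ± 115 FPKM (SD, n = 3) was 1.75-fold that of FO B (Aged), a log2 difference of 0.80 (SE 0.11), and 0.70 without ABC replicate 3. FO B (Aged) was 7.29% above FO B (Young) in the mean without overlap, a difference that turned to -0.03 on the log2 scale with upper-quartile scaling. Itm2b exceeded App 460-fold in FO B (Aged) and 31.7-fold in ABCs as a mean of library ratios.

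Among its relatives, Itm2c, the BRI3 gene, rose by 3.99 (SE 0.17, limma FDR = 1.45e-05), from 5.003 ± 1.17 to 94.1 ± 16.7 FPKM (SD, n = 3 each). It was the only one of the 4 other genes of the BRI list to pass, 25% beside 35.9% over all genes tested. Itm2a was at 4.26 ± 1.01 FPKM in FO B (Aged) and 10.8 ± 6.35 in ABCs (limma FDR = 0.056). Sppl2a and Sppl2b, whose products cut BRI2 in the membrane, differed by 0.25 and 0.17 (limma FDR = 0.10 and 0.24).

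**Figure D3:**
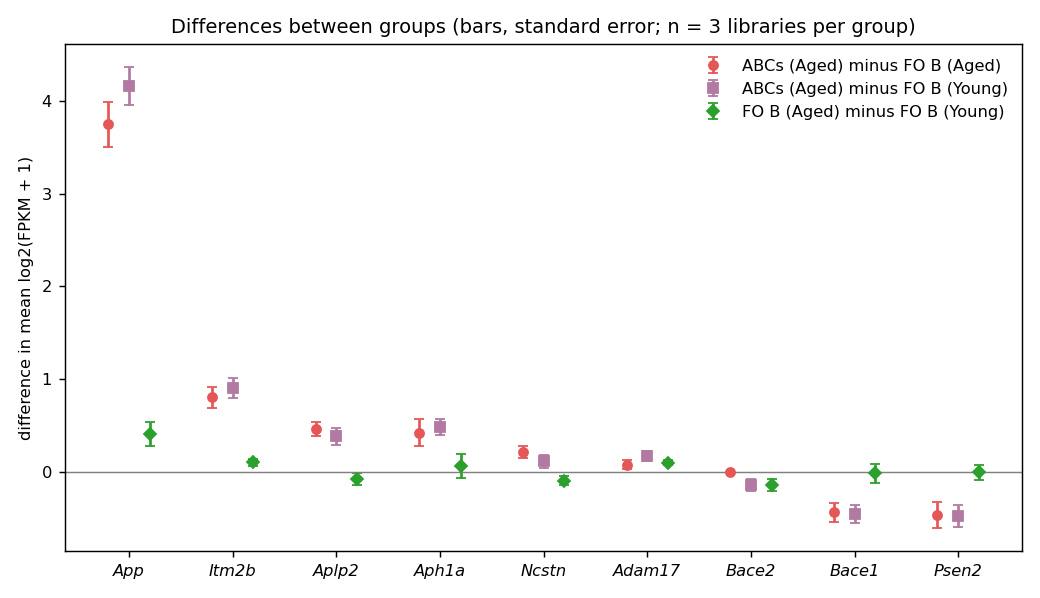
Differences of the 9 genes in mean log2(FPKM + 1) for the 3 comparisons, with bars for the standard error (n = 3 libraries per group). App stands at 3.75 and 4.16 in the comparisons of ABCs with FO B (Aged) and FO B (Young), and the 2 comparisons share the ABC libraries.

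Set beside all genes, the count of members past the threshold is a description only, since the members were chosen with this contrast in view. In ABCs against FO B (Aged), 8 of the 9 members averaged 1 FPKM or more, and 6 had an FDR under 0.05 in limma, 4 higher (App, Aplp2, Aph1a and Itm2b) and 2 lower (Bace1 and Psen2). The background was 35.9% of 10412 genes, 19.4% higher and 16.5% lower (54% of the calls higher, or 80.3% with upper-quartile scaling), and nothing is read from the difference. The median log2 difference of the 8 was 0.32, against -0.01 over all genes. Leaving out 1 library left 3 to 5 members past it, with 3 when FO B (Aged) replicate 1 was left out. Groups did not overlap for 7 of the 8 members, where the background was 52.6%. Against FO B (Young), which shares the ABC libraries with the first comparison, the same 6 members passed, with a background of 40.7% of 10438 genes, and 7 of the 8 tested did not overlap, where the background was 55.3%. The differences there were 4.16 for App, 0.90 for Itm2b, 0.48 for Aph1a, 0.38 for Aplp2, -0.46 for Bace1 and -0.48 for Psen2.

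Between FO B (Aged) and FO B (Young), 7 members entered the fit and 0 passed an FDR of 0.05 in limma, with a background of 0.464% of 10122 genes at that threshold and 12.8% at an unadjusted p under 0.05. The 7 differences ran from -0.10 for Ncstn to 0.10 for Itm2b. Of the 7, Itm2b and Adam17 did not overlap between the FO B groups, where the background was 18.6%. App and Bace2 were too low to enter.

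The order of group levels was ABCs, then FO B (Aged), then FO B (Young) for App, with no overlap between neighbours. For Itm2b, Adam17 and Aph1a the means fell in the same order. The 2 groups of aged mice overlapped for Adam17, and the 2 FO B groups overlapped for Aph1a. For Aplp2 and Ncstn the 2 FO B groups overlapped below the ABC mean, and for Bace1 and Psen2 they overlapped above it. Among the members above 0.5 FPKM, App varied most between libraries in FO B (Aged) and in ABCs, with coefficients of variation of 28.7% and 24.8%. In FO B (Young) Bace1 varied most, at 10.3%, against 9.51% for App. Adam17 varied least in FO B (Aged), at 1.52%.

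Beyond the members, 77 listed genes of the wider pathway that are no members were read from the same fits. The lists, too, were made with earlier results of these data known, so their counts and shares are descriptions and nothing is read from a share above the background. In ABCs against FO B (Aged), 56 averaged 1 FPKM or more, and 28 passed an FDR of 0.05 in limma (50% beside the background of 35.9%), 16 higher and 12 lower. Their median log2 fold change was 0.15, against -0.01 over all genes tested. Against FO B (Young), 33 of 56 passed (58.9% beside a background of 40.7%), 20 higher and 13 lower. Between the FO B groups, 0 of 55 passed (limma), where the background was only 0.464% of all genes tested.

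Among 18 genes of APP and BACE1 trafficking, 15 were tested, 4 were higher and 3 lower in ABCs than in FO B (Aged). These calls made up 46.7% of the genes tested, beside the background of 35.9% over all genes. Sorl1, a sorting receptor that returns APP to the Golgi, fell by 1.16 (SE 0.18, limma FDR = 0.0028), from 63.5 ± 4.75 to 28.4 ± 7.18 FPKM (SD, n = 3 each). Gga2, a Golgi clathrin adaptor, fell by 1.80 (SE 0.22, limma FDR = 0.00097), from 108 ± 4.25 to 31.6 ± 10.04 FPKM. Cd2ap, an endocytic adaptor, fell by 0.95 (limma FDR = 0.00095). The retromer genes Vps26b and Vps35 rose by 1.53 (limma FDR = 0.00038) and 0.29 (limma FDR = 0.013), while Vps26a differed by 0.02 (limma FDR = 0.86). Rtn3, a reticulon that binds BACE1, rose by 0.68 (limma FDR = 0.00076), and Arf6, a GTPase of endosomal traffic, by 0.39 (limma FDR = 0.0043). Of 12 genes of adaptors that bind the APP tail, 6 were tested and 2 were lower, 33.3% beside the same background. They were Numb, by 0.39, and Kat5, by 0.28 (limma FDR = 0.047 and 0.04).

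**Figure D4:**
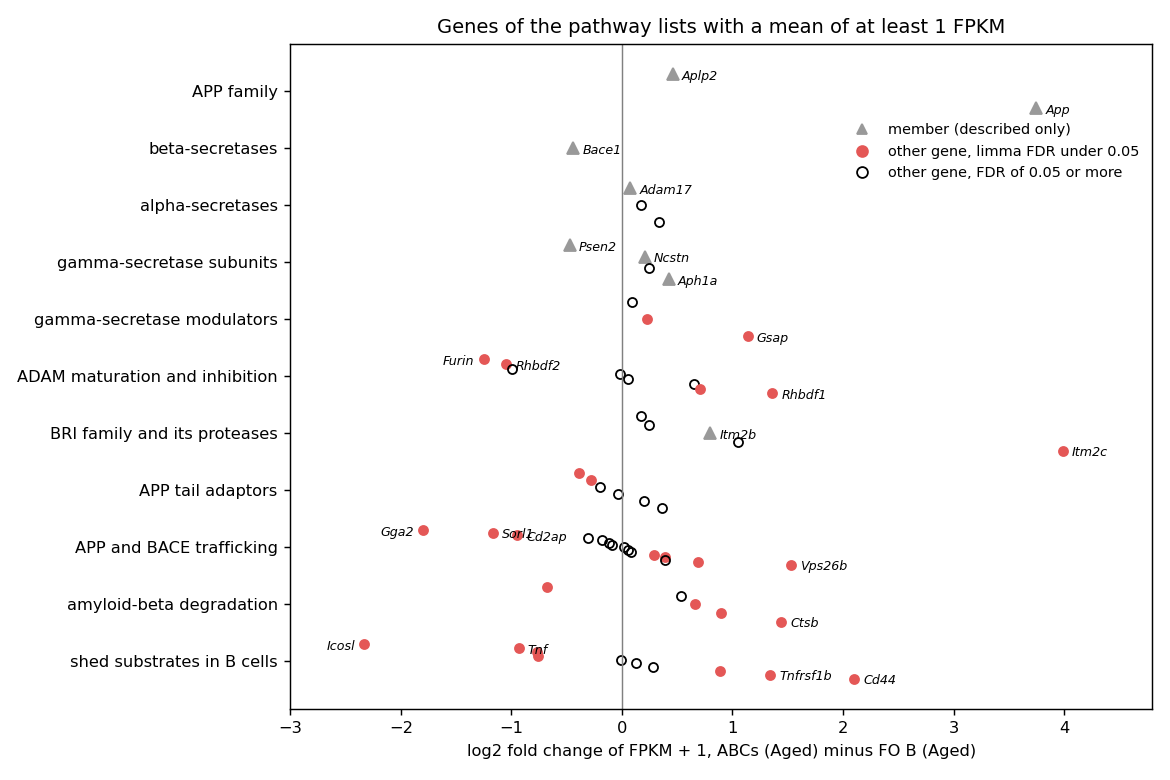
Log2 fold changes of FPKM + 1 between ABCs (Aged) and FO B (Aged) for tested genes of each pathway list, 1 row of points per list. Filled circles passed a limma FDR of 0.05, open circles did not, and grey triangles are members, whose values are descriptions. App and Itm2c lie farthest to the right, at 3.75 and 3.99, and Icosl and Gga2 are among the lowest.

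The genes whose pattern was most like that of App were found by the root mean square difference of log2(FPKM + 1) over the 9 libraries, after centring each gene, among 8046 genes that averaged 5 FPKM or more. They were Tmem106a (0.25), Itm2c (0.26), Cd80 (0.28), Bhlhe41 (0.29) and Prf1 (0.29). Tmem106a averaged 1.39, 2.85 and 36.8 FPKM in FO B (Young), FO B (Aged) and ABCs. Cd80, a costimulatory ligand gene, averaged 0.228, 0.312 and 25.7, and Bhlhe41, a transcriptional repressor gene, 1.43, 1.37 and 28.7. Prf1, the perforin gene, averaged 1.15, 0.816 and 29.2. For Itm2b the nearest gene was Edem2 (0.04) and for Psen2 it was the ribosomal protein gene Rpl35a (0.04). For Bace1 it was Foxj2 (0.06), for Aplp2 Rtfdc1 (0.05), for Aph1a Cpox (0.07), for Ncstn Otub1 (0.04) and for Adam17 Usp16 (0.04). Bace2 is so low that its nearest gene, Tomm7 (0.04), is one that hardly varied. These measures are descriptions of 9 libraries that share groups.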

How the data were processed

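The files deposited by the authors hold 1 FPKM value for each gene symbol in each of 9 libraries. The cDNA came from the SMART-Seq HT kit, which keeps no strand, and Nextera libraries were read as single ends. The submitters' processing notes name mm10, TopHat2 2.1.1, Bowtie2 2.2.8, SAMtools 0.1.18 and Cuffdiff 2.2.1. The study's methods instead name other versions of TopHat, Bowtie2 and SAMtools, and Cufflinks for the FPKM values, so which program and scaling made the deposited values is not settled here. The gene annotation and any scaling between libraries are not given in the sources used here. FPKM divides by transcript length and library depth, so a group in which a few genes take more reads has all others lowered.

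Groups were taken from the sample labels. The members and gene lists were chosen with earlier results of these data known. For tests, log2(FPKM + 1) entered limma 3.58.1 (R 4.3.3; lmFit, then eBayes with a trend) for the 6 libraries compared. Genes averaging under 1 FPKM were left out, with Benjamini-Hochberg adjustment over all genes tested (FDR under 0.05). The step was tested on simulated data. Standard errors of members are unpooled. Relative depth was read from the most common ratio between libraries among values under 1 FPKM. Absolute depth was read from the step that 1 read makes in 1479 genes with 1 annotated transcript, and depends on its annotated length. Whole reads were accepted within 0.02 of a read. Named genes are the members, list genes past the FDR threshold between the groups of aged mice, genes that complete a complex or family, the most similar patterns (5 for App and 1 for each other member) and markers where their list is given. The marker lists were B lineage, sort markers, macrophage and monocyte, dendritic cell, T cell, NK cell, platelet and megakaryocyte, neutrophil, plasma cell, erythroid, and stroma and endothelium. As alternatives, the pseudocount was set to 0.1 or 0.01, the filter was removed or raised to 5 FPKM, and values were rescaled (TPM, upper quartile, quantile). The trend was dropped, all 9 libraries were fitted together, the replicate number was used as a block, stricter thresholds were applied, and each library was omitted in turn. Python 3.11.15, numpy 2.4.6, pandas 2.3.3, scipy 1.17.1 and matplotlib 3.10.9 were used. Some genes of the lists were counted but are not reported here by name or shown.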

Additional observations from a re-analysis of the deposited data

How the results depend on the processing

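The direction of App, Aplp2, Aph1a, Itm2b, Ncstn, Adam17, Bace1 and Psen2 between ABCs and FO B (Aged) was kept in all alternatives that gave a value. The App difference was 4.51 with a pseudocount of 0.1 and 4.62 with 0.01, and 3.58 to 3.94 when 1 library was left out. Between the FO B groups, the differences of Adam17, Aph1a, Bace1, Itm2b and Psen2 changed sign in 1 or 2 alternatives. With FDR under 0.01, the genes called were 2072 in ABCs against FO B (Aged), 2465 in ABCs against FO B (Young) and 17 in FO B (Aged) against FO B (Young), and the members called were 3 and 3 in the first and the second. With a log2 fold change above 2.3 as well, genes were 200, 230 and 2, members 1 and 1 (App), and pathway genes 2 and 1. In the comparison with FO B (Young), upper-quartile scaling called 2779 genes. Between the FO B groups, 15 genes were called with no filter, 30 without a trend and 18 with all 9 libraries in the fit, against 47. Without 1 library, the genes called ran from 2550 to 3643, from 3057 to 4163 and from 19 to 69 in the 3 comparisons, the last being lowest without FO B (Aged) replicate 1 and 21 and 23 without FO B (Young) replicates 1 and 2. Members called ran from 3 to 5, from 4 to 7 and stayed at 0, and pathway genes called from 22 to 29, from 27 to 35 and stayed at 0. The cause of these changes was not tested. A stricter threshold makes fewer calls by construction. Leaving out a library lowered some counts and raised others, with up to 69 genes called between the FO B groups against 47.

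Upper-quartile scaling moved the median of all genes to 0.15 in ABCs against FO B (Aged), where 80.3% of the calls were then higher in place of 54%, and to -0.12 between the FO B groups, where 46.0% were higher in place of 74.5%. Against FO B (Young) it gave 66.6% higher in place of 53.0%. Of the 28 pathway genes called in the first comparison, 396 of 445 alternative fits kept the call, 49 lost it and 0 reversed.

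Whether libraries with the same replicate number came from the same mice is not stated. Between ABCs and FO B (Aged), deviations from the group means correlated at 0.0845, -0.0190 and 0.108 for the same number. For different numbers the correlations ran from -0.108 to 0.0589. With 3 libraries per group these values cannot settle whether samples are paired. The main fits took no pairing, and a block was used only as an alternative. With the replicate number as a block, 3448, 3508 and 37 genes were called in the 3 comparisons, against 3739, 4248 and 47.

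Depth limits App in FO B cells, Bace2 and Aplp1, whose values rest on few reads.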

Other observations

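Genes of amyloid-beta degradation and of substrates shed from B cells were listed beside the members. Of 7 degradation genes, 5 were tested between ABCs and FO B (Aged), and 3 were higher and 1 lower (limma, FDR under 0.05). This is 80% of the 5, beside 35.9% over all genes tested, and nothing is read from the share. Ctsb, the cathepsin B gene, rose by 1.44 (SE 0.09, FDR = 7.03e-05), from 46.5 ± 2.60 to 128 ± 13.8 FPKM (SD, n = 3 each). Ide, the insulin-degrading enzyme gene, rose by 0.90 (limma FDR = 0.0011), from 12.4 to 24.1 FPKM, and Ctsd, the cathepsin D gene, rose by 0.66 (limma FDR = 0.009). Ece2 fell by 0.68 (limma FDR = 0.01).

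Of 14 genes of shed or cut surface proteins, 11 were tested, and 3 were higher and 4 lower in ABCs. The share called was 63.6%, beside 35.9% over all genes tested, and nothing is read from it. Cd44, an adhesion receptor gene, rose by 2.102 (SE 0.14, limma FDR = 8.93e-05), from 17.4 ± 1.85 to 78.5 ± 14.7 FPKM (SD, n = 3 each). Tnfrsf1b and Icam1 rose by 1.34 and 0.89 (limma FDR = 0.00064 and 0.00065). Icosl, the ICOS ligand gene, fell by 2.33 (SE 0.09, limma FDR = 1.24e-05), from 106 ± 8.95 to 20.2 ± 1.79 FPKM. Notch2 fell by 0.76 (limma FDR = 0.00075), Tnf by 0.94 (limma FDR = 0.00073) and Il6ra by 0.77 (limma FDR = 0.037).

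The remaining marker lists were low. The 6 neutrophil markers with values summed to between 1.09 and 21.4 FPKM in FO B (Aged) but at most 0.645 in ABCs, the erythroid markers to 0.0586 to 0.619 and 0.256 to 0.497, and the stroma and endothelium markers to at most 0.0794 and 0.675.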
